A study of Mus musculus with 37 samples.

Results

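Lipoprotein and transport genes of the visceral endoderm were followed across the libraries of a mouse study of the maternal loss of Bap1. There were 10 genes of 55401 listed, chosen by symbol: the apolipoprotein genes Apoa1, Apoa4, Apob, Apom, Apoe, Apoc1, Apoc2 and Apoc4, the transthyretin gene Ttr, and Gm44805, a gene model that overlaps Apoc2. They were picked with their lineage pattern known, and Gm44805 was added because of its difference between genotypes in the visceral endoderm, so both of these are given as a description and nothing is read from a test of either.

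Bap1 encodes a deubiquitinase that removes ubiquitin from histone H2A. Controls were Bap1flox/flox females or their embryos, and the knockout was Gdf9-iCre, Bap1flox/flox, in which iCre under the oocyte promoter Gdf9 deletes Bap1 in growing oocytes. Total RNA was measured in 26 libraries, with 2 or 3 a group, of fully grown oocytes, of MII eggs, and of embryos sired by B6 males at the late 1-cell stage and at the early and late 2-cell stages. Poly(A) RNA was measured in 11 libraries of embryonic day 6.5 embryos sired by PWK males. These held visceral endoderm and epiblast with 2 control and 2 maternal knockout libraries each, and extraembryonic ectoderm with 1 control and 2 knockout libraries. Embryos of both genotypes inherit an intact Bap1 allele from the father. The labels do not say whether libraries of 1 group came from separate embryos or litters, so p-values measure only the spread between these libraries, which may be technical.

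The visceral endoderm is the epithelium that surrounds the epiblast and extraembryonic ectoderm after implantation and takes up and passes on maternal nutrients. It assembles apolipoprotein B with lipids into secreted particles, as the liver and intestine do later, and it makes carriers such as transthyretin and retinol-binding protein. Apolipoproteins form the protein coat of these particles, activate or inhibit the enzymes that unload their lipids, and bind the receptors that remove them.

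Levels are given as the FPKM that the authors deposited, that is, fragments scaled to the length of the gene and to the size of the library. Scaling to length alone does not make the levels of different genes fully comparable, and Gm44805, Apoc2 and Apoc4 share exonic bases. Orders of genes are therefore orders of FPKM only. The values do not keep the number of reads, so the depth behind a value is unknown. FPKM summed to 593705 to 704522 in the poly(A) libraries and to 300668 to 430784 in the total RNA libraries. Bap1 itself was listed at 16.3 to 29.9 FPKM in control oocytes, eggs and early embryos and at 3.76 to 11.7 FPKM in the knockout ones, without overlap at any stage. At embryonic day 6.5 it was at 14.0 to 22.6 FPKM in controls and 18.3 to 33.8 FPKM in maternal knockouts, where the paternal allele is present and the gene does not check the labels. The 11 visceral endoderm markers (Afp, Amn, Cubn, Dab2, Foxa2, Gata4, Gata6, Sox17, Hnf4a, Spink1 and Cldn6) summed to 5060 to 9448 FPKM in the visceral endoderm libraries, against 161 to 285 FPKM in the epiblast and 145 to 279 FPKM in the extraembryonic ectoderm.

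Gm44805 and the genes around it have to be read together, because their transcripts share sequence. In GENCODE M21 on GRCm38, the build called mm10 that the submitters' processing notes name, the genes lie on the minus strand of chromosome 7 in the order Apoe (chr7:19696109-19699188), Apoc1 (chr7:19689481-19692660), Apoc4 (chr7:19678083-19681479) and Apoc2 (chr7:19671579-19677941). Gm44805 (ENSMUSG00000109350.1, chr7:19671584-19681423) starts in the first exon of Apoc4 and ends in the last exon of Apoc2. RefSeq gives it the synonym Apoc4-apoc2. Of its 765 exonic bases, 646 (84.4%) are exonic in Apoc2, the other 119 (15.6%) are exonic in Apoc4, and 0 are its own. Conversely, 79.5% of the 813 exonic bases of Apoc2 belong to Gm44805 too.

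What is particular to Gm44805 is therefore a splice junction, not an exon. The junctions are printed here because they are what can tell its reads from those of its neighbours. Each line holds the last 15 bases of the upstream exon in lower case and the first 15 bases of the downstream exon in capitals, 5′ to 3′ on the transcribed strand, read from the GENCODE M21 transcripts.

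Apoc4-201: tggtcagctttgtagCATCCATGTCTACAG
Gm44805-201: tggtcagctttgtagGCCTGCCACCCCACC
Gm44805-202: tggtcagctttgtagGTCCCAGACAGCATG
Apoc2-203: aagtcttagaggccgGCCTGCCACCCCACC
Apoc2-201: tgccactacattcagGTCCCAGACAGCATG

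The upstream 15 bases of both Gm44805 transcripts are those of Apoc4-201, and their downstream 15 bases are those of Apoc2-203 and Apoc2-201. Both Gm44805 junctions occur in no other annotated transcript of the release, whereas the Apoc2-201 junction is also found within Gm44805. The coding sequences of Gm44805-201 and Gm44805-202, without the stop codon, are 291 bases long and identical to that of Apoc2-201. It is shown with its start codon in capitals, since it is the sequence that reads of either gene would come from.

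Apoc2-201: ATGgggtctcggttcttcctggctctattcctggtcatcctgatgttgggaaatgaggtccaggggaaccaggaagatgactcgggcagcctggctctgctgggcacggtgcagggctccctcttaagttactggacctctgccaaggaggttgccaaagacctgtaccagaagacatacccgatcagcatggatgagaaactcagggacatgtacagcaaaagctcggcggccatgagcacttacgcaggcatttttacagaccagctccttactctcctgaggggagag

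RefSeq gives Apoc4 and Gm44805 the same start, so the 250 bases before it are the same for both (GRCm38.p6, chr7:19681461-19681710, minus strand). They are printed because these genes share a start and differed in how far apart the genotypes were.

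Apoc4 and Gm44805: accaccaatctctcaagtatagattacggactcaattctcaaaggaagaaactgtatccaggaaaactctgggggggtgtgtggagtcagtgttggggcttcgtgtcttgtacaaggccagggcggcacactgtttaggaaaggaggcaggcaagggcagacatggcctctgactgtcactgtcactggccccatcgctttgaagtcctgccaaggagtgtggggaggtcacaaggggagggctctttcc

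RefSeq windows of this length were used for 8 of the 10 genes, and 4 motifs were searched in them on both strands. The TATA box, spelled TATAAA and held by 12.4% of all 32851 windows, was present in the Apob window and in 1 window of Apoe. For GATA factors, the spelling AGATAA was in none of the windows of these genes and in 9.99% of all windows. For FOXA factors, the spelling TGTTTAC was likewise in none of theirs and in 3.17% of all windows. For the core of the HNF4A site, the spelling AAAGTCC was in none of theirs and in 3.58% of all windows. The window shared by Apoc4 and Gm44805 held none of the 4 spellings. Each motif was searched in that exact spelling only. Other forms of a site were not looked for, so these absences do not show that the windows lack sites of these factors.

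In the visceral endoderm the genes ran from the most abundant of all transcripts to moderate levels. By FPKM Apoa1, Apoc2 and Apom had rank 20 or better among all genes in all 4 libraries and Apoe had ranks from 1 to 47, whereas Apob and Apoc4 had ranks from 2106 to 7856. Together the 10 made up 3.69% and 3.68% of all FPKM in the control libraries and 3.03% and 2.42% in the knockout libraries. They made up 0.0211% to 0.0409% in the epiblast and 0.0625% to 0.117% in the extraembryonic ectoderm. By mean level in control visceral endoderm the order was Apoc2 (7650 FPKM), Apoe (5780), Apoa1 (5462), Apom (3107), Ttr (1400), Gm44805 (1057), Apoa4 (732), Apoc1 (499.8), Apob (17.1) and Apoc4 (15.6). With 2 libraries a group, the order is not settled throughout. In the controls Apoc2, Apoe and Apoa1 overlapped in their values, Apom lay inside the range of Apoe, the range of Gm44805 overlapped those of Ttr, Apoa4 and Apoc1, and Apob overlapped Apoc4. Apoa1 and Apom did not overlap, nor did Apom and Ttr, Ttr and Apoa4, or Apoa4 and Apoc1.

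**Figure D1:**
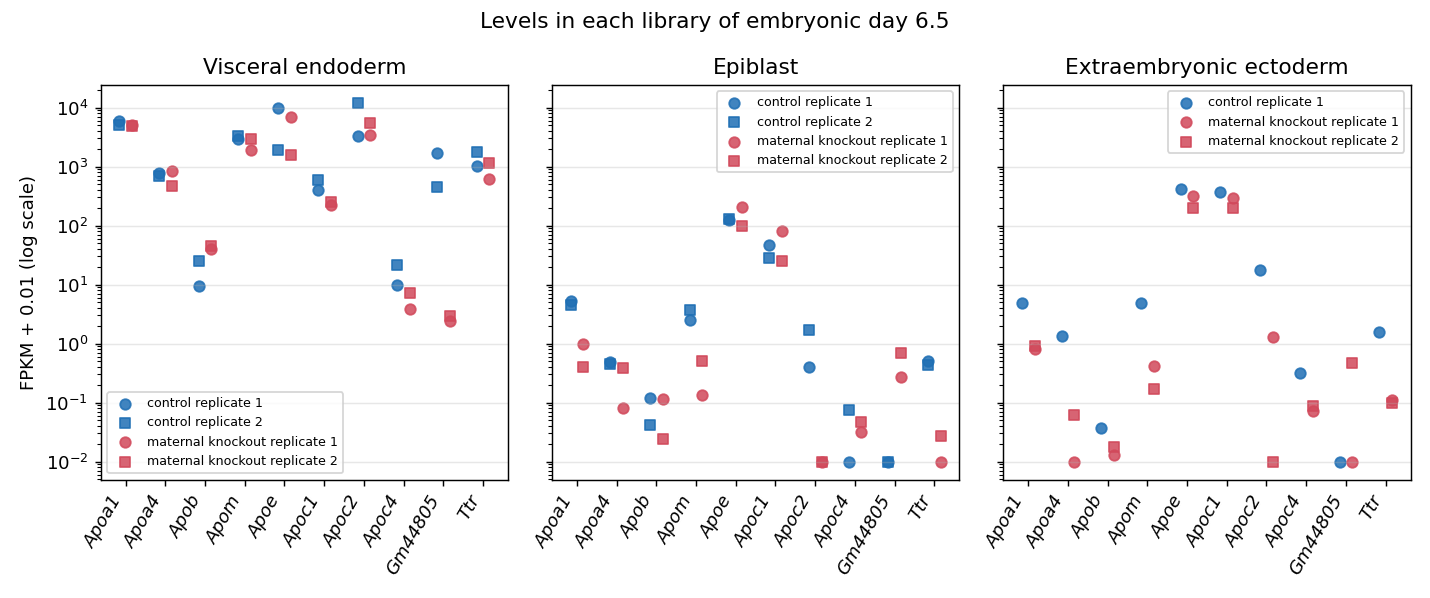
FPKM plus 0.01 on a log scale for the 10 genes in the 11 libraries of embryonic day 6.5, one panel per lineage, with controls in blue and maternal knockouts in red (circles replicate 1, squares replicate 2), so that a value of 0 sits at 0.01. Gm44805 is at 444 and 1670 FPKM in control visceral endoderm and at 2.43 and 2.89 FPKM in knockout visceral endoderm, and the lowest Apoc1 value in any lineage is 24.8 FPKM.

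Apoa1 is the main protein of high-density lipoprotein and activates the enzyme that esterifies its cholesterol. In visceral endoderm it was at 5949 and 4975 FPKM in the controls and at 5085 and 4786 FPKM in the knockouts. The knockout values overlapped the range of the controls, and the difference of knockout minus control was -0.14 ± 0.32 (log2 of FPKM + 1, SE, limma, adjusted p = 1). It was the steadiest of the 10 genes, with 1.24 times between its highest and lowest visceral endoderm library.

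Apoa4, a lipid-binding protein of newly made particles, lies next to Apoa1 on chromosome 9 (chr9:46240696-46243459, with Apoa1 at chr9:46228580-46230466). It was at 772 and 693 FPKM in control visceral endoderm and at 825 and 473 FPKM in the knockouts, which lie on either side of the controls (-0.23 ± 0.37, adjusted p = 1, and 0.17 without knockout replicate 2). Gene models on the other strand cover 69.8% of its exonic bases, and whether counting used the strand is not given in the sources used here.

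Apob encodes the large structural protein on which lipid-rich particles are built (chr12:7977648-8016835). It was the sole gene of the 10 that was higher in the knockouts, at 9.31 and 24.8 FPKM in the control visceral endoderm and 39.8 and 45.8 FPKM in the knockouts. The groups did not overlap and the difference was 1.42 ± 0.46, but it did not pass the test over all genes (limma, adjusted p = 1). The control libraries differed from each other by 2.67-fold, more than the 2.51-fold between the genotype means. Its FPKM was low beside that of Apoa1, which was at 5462 FPKM on average in the same controls.

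Apom carries sphingosine 1-phosphate on high-density lipoprotein (chr17:35128997-35132050). It was at 2935 and 3279 FPKM in control visceral endoderm and at 1903 and 2889 FPKM in the knockouts. Both knockouts were below both controls, the nearer by a small margin, and the difference of -0.40 ± 0.35 did not pass (adjusted p = 1).

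Apoe, the ligand by which particle remnants are taken up through the receptors of the LDL receptor family, split the libraries by number and not by genotype. It was at 9654 FPKM in control replicate 1 and 6862 FPKM in knockout replicate 1, and at 1906 FPKM in control replicate 2 and 1595 FPKM in knockout replicate 2. Replicate 1 was thus 5.06 times replicate 2 in the controls and 4.30 times in the knockouts. It was the most abundant of all genes in control replicate 1 and had rank 40 in control replicate 2. The difference between genotypes, -0.37 ± 0.84 (adjusted p = 1), was small beside this spread, and without control replicate 1 it was 0.80.

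Apoc1, which slows the uptake of remnants, was at 401 and 599 FPKM in control visceral endoderm and at 227 and 254 FPKM in the knockouts. The knockouts were lower without overlap, 2.08-fold between the means, and the difference of -1.03 ± 0.54 did not pass (adjusted p = 1).

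Apoc4, a minor apolipoprotein, was at 9.88 and 21.3 FPKM in the controls and at 3.78 and 7.30 FPKM in the knockouts. These groups did not overlap either, and the difference of -1.31 ± 0.45 did not pass (adjusted p = 1). Its first exon is the one that Gm44805 shares.

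Apoc2 activates lipoprotein lipase, the enzyme that releases fatty acids from particles. It was at 3303 and 11996 FPKM in the control visceral endoderm and at 3466 and 5413 FPKM in the knockouts. Both knockout values lay between the control values, and the fitted difference was -0.54 ± 0.59, or 0.39 without control replicate 2. Since 79.5% of its exonic bases also belong to Gm44805, no p is given for it on its own.

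Gm44805 stood far from all of these. It was at 1670 and 444 FPKM in the control visceral endoderm and at 2.43 and 2.89 FPKM in the knockouts, so both knockouts were far below both controls. The control libraries differed from each other by 3.76-fold and the knockouts by 1.19-fold. The means differed by 397-fold, and on the scale of log2(FPKM + 1) the difference was -7.88 ± 0.57. In this lineage limma called 1 gene of 13376 at an adjusted p under 0.05 (0.00748%), and that gene was Gm44805. This contrast is how the gene was chosen, so nothing is read from that call.

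Gm44805 took a different share of the FPKM it splits with Apoc2 in each library. It held 33.6% and 3.57% of the sum of both in the controls, and 0.0702% and 0.0534% in the knockouts. Its ratio to Apoc4, with which it shares a first exon, was 169 and 20.8 in the controls and 0.645 and 0.396 in the knockouts. In the first control, which had the most Gm44805, Apoc2 was the lower of the 2 controls, and in the second control it was the higher.

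Taking Apoc2 and Gm44805 as 1 unit, weighted by exonic length, the level was 4875 and 12414 FPKM in control visceral endoderm and 3469 and 5415 FPKM in the knockouts. The knockout with more of it was above the control with less, so these groups overlapped. The difference was -0.84 ± 0.51, and adding Apoc4 to the sum gave -0.85 ± 0.53. These sums hold the values by which Gm44805 was chosen, so no p is given for them. How the authors' counting shared reads between overlapping models is not given in the sources used here, and its part in the values of Gm44805 was not tested.

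**Figure D2:**
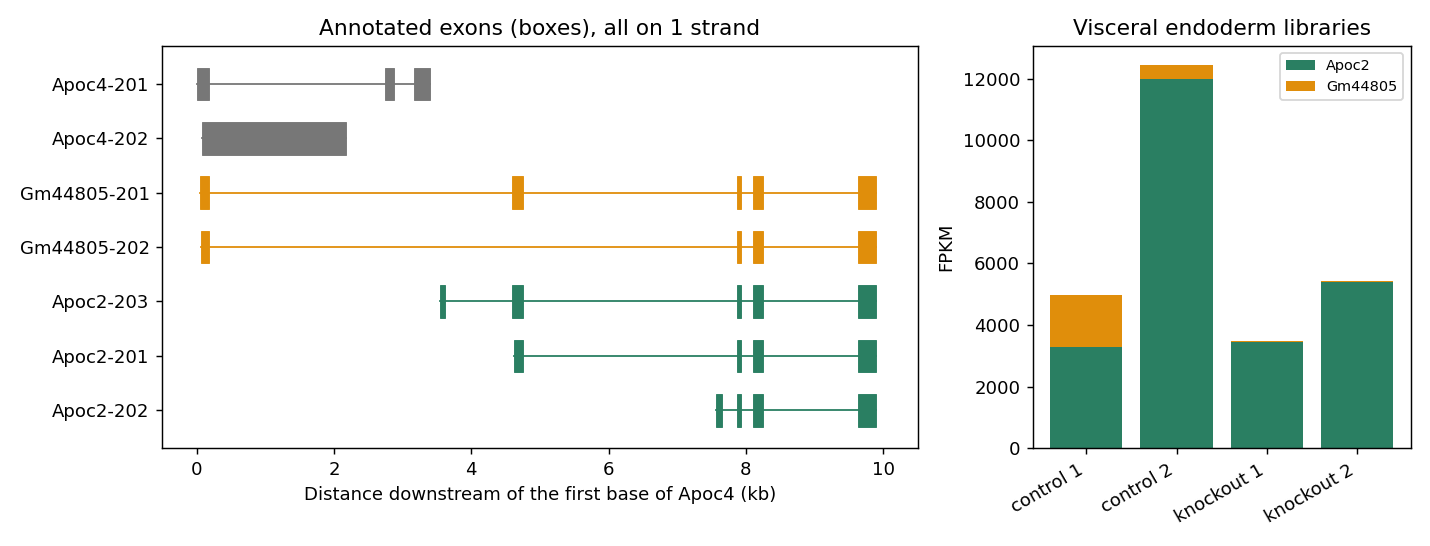
Left, annotated exons (boxes) of Apoc4, Gm44805 and Apoc2 by distance in kb downstream of the first base of Apoc4. Right, FPKM of Apoc2 (green) and Gm44805 (orange) stacked for the 4 visceral endoderm libraries. Each Gm44805 exon lies over an exon of Apoc4 or Apoc2, and its share of the bar is 33.6% and 3.57% in the controls and too thin to see in the knockouts.

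Ttr, the carrier of thyroid hormone and of retinol-binding protein, was at 1015 and 1785 FPKM in the control visceral endoderm and at 609 and 1165 FPKM in the knockouts. The groups overlapped and the difference of -0.68 ± 0.42 did not pass (adjusted p = 1).

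Gm44805 was chosen for its lower knockout level, so the genes are counted without it. Of the other 9, the knockouts were lower in visceral endoderm without overlap for 3 (Apom, Apoc1 and Apoc4) and higher for 1 (Apob), and 5 overlapped. Among the 13376 genes tested, 9.81% were lower and 14.3% higher without overlap. The fitted difference was below 0 for 8 of the 9, with a median of -0.40. Over all genes tested the median was 0.05, with quartiles of -0.14 and 0.25. The 9 still hold Apoc2 and Apoc4, which share exonic bases with Gm44805, so these counts are not free of its choice. None of the 9 was called by limma after adjustment. At an unadjusted p under 0.05 there were 2 of the 9, Apob and Apoc4, in opposite directions, and 170 over all genes (1.27%).

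Summed markers of 4 other cell types were higher in both knockouts than in both controls of the visceral endoderm, and their part in the differences above was not tested. The 7 epiblast markers summed to 142 to 174 FPKM in the controls and 204 to 239 FPKM in the knockouts. Of these Fgf5 did not overlap, at 18.2 and 8.65 FPKM and at 38.5 and 20.2 FPKM, and Pou5f1 was at or under 0.213 FPKM in all 4. The 8 extraembryonic ectoderm markers summed to 12.8 to 14.5 FPKM and 20.2 to 30.2 FPKM, carried by Eomes at 9.44 and 10.2 FPKM and at 22.7 and 16.8 FPKM, with Elf5 at or under 0.381 FPKM. The 5 streak and mesoderm markers summed to 14.7 to 15.8 FPKM and 25.6 to 42.8 FPKM, mostly Mixl1 at 14.2 and 12.5 FPKM and at 34.5 and 23.5 FPKM, while T overlapped. The 5 decidua markers summed to 1.37 to 1.99 FPKM and 3.69 to 24.4 FPKM, mostly Cryab. Of the 6 parietal endoderm markers 5 were higher in the knockouts without overlap, as were 14.3% of all genes tested. Of the 6, 3 were tested. Thbd was at 0 in both controls and at 1.37 and 0.0720 FPKM in the knockouts. Plat was at 0.0121 and 0.846 FPKM and at 3.83 and 0.912 FPKM. The sums of the 6, at 427 to 531 FPKM and 521 to 662 FPKM, overlapped. The 5 leukocyte markers, nearly all of it Cd68, summed to 6.53 to 6.64 FPKM in the controls and less, 4.95 to 5.45 FPKM, in the knockouts. The 6 markers of anterior visceral endoderm, at 57.2 to 149 FPKM and 109 to 181 FPKM, overlapped between the groups. So did the 11 markers of visceral endoderm, at 5060 to 9448 FPKM in the controls and 5437 to 6564 FPKM in the knockouts. Of these 11, 7 fitted differences were above and 4 below 0, with a median of 0.10.

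Knockout replicate 1 held several transcripts that the others had little of. Its 5 blood markers summed to 45.4 FPKM, against at most 0.356 FPKM in the controls and 0 in the other knockout. Of its decidua markers Cryab was at 21.6 FPKM and Prl8a2 at 2.76 FPKM, against at most 3.59 and 0.0514 FPKM in the others, and Des, Hand2 and Pgr were at or under 0.170 FPKM in all 4. Among the parietal endoderm markers Stra6 was at 4.55 FPKM against at most 0.212 FPKM, and Lama1 at 20.3 FPKM against at most 9.49 FPKM. Without that library, Gm44805 was at 2.89 FPKM in the remaining knockout, with a difference of -7.79. As the gene was chosen from these libraries, nothing is read from that value. The part of these transcripts in the other differences was not tested.

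**Figure D3:**
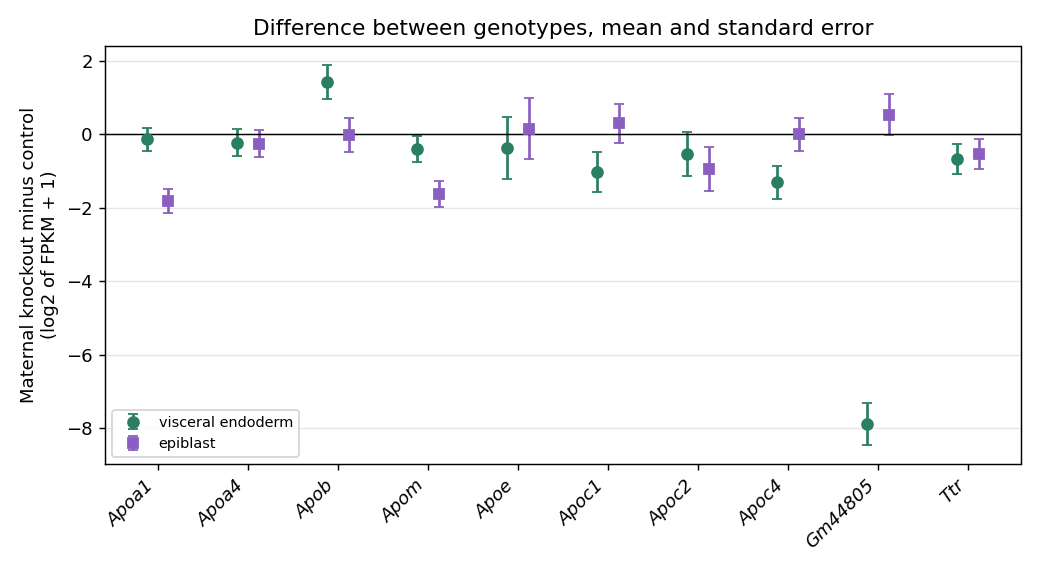
Maternal knockout minus control on the scale of log2(FPKM + 1) for the 10 genes, with standard errors from limma, in visceral endoderm (green circles) and epiblast (purple squares). Gm44805 in visceral endoderm, at -7.88, lies far below the others, and Apoa1 and Apom are the lowest in epiblast, at -1.82 and -1.64.

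Outside the visceral endoderm, Apoe and Apoc1 had the highest levels of these genes. In the epiblast Apoe was at 125 and 130 FPKM in the controls and 205 and 98.4 FPKM in the knockouts, and Apoc1 at 47.2 and 27.6 FPKM and at 79.9 and 24.8 FPKM. In the extraembryonic ectoderm Apoe was at 410 FPKM in the control and 315 and 197 FPKM in the knockouts, and Apoc1 at 364 FPKM and at 293 and 202 FPKM. The control value of Apoc1 there was 98.3% of its mean over the 4 visceral endoderm libraries, so Apoc1 was not particular to the visceral endoderm in these libraries. For Apoe the same share was 8.20%, and in the epiblast the shares were 1.97% to 4.09% for Apoe and 6.69% to 21.6% for Apoc1. In knockout minus control of epiblast the difference was 0.15 ± 0.84 for Apoe and 0.30 ± 0.54 for Apoc1 (both adjusted p = 1).

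The other 8 genes were far below their visceral endoderm mean in the other lineages. They were at most 0.616% of that mean in any epiblast library and 2.88% in any extraembryonic ectoderm library, both for Apoc4. That mean pools the genotypes, and for Gm44805 it is set by the controls. Against the knockout visceral endoderm mean of 2.66 FPKM, Gm44805 reached 9.66% and 25.3% in the knockout epiblast and 0% and 17.2% in the knockout extraembryonic ectoderm. The highest level of the 8 genes outside the visceral endoderm was that of Apoc2 in the control extraembryonic ectoderm, at 17.7 FPKM. In the knockouts of that lineage Apoc2 was at 1.28 and 0 FPKM. On the log2 scale, the mean of visceral endoderm exceeded that of epiblast by 11.88 for Apoc2, 10.71 for Apoa1 and 10.21 for Apom. The excess was 4.80 for Apoe, 4.65 for Apob, 3.26 for Apoc4 and 3.06 for Apoc1.

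For 5 of these genes (Apoa1, Apoa4, Apom, Apoc2 and Ttr) the epiblast traces were lower in both knockouts than in both controls. In epiblast Apoa1 was at 5.17 and 4.50 FPKM in the controls and at 0.965 and 0.390 FPKM in the knockouts (-1.82 ± 0.32, limma, adjusted p = 0.686). Apom was at 2.48 and 3.65 FPKM and at 0.126 and 0.489 FPKM (-1.64 ± 0.35, adjusted p = 1). Apoc2 was at 0.393 and 1.66 FPKM and listed at 0 in both knockouts, and Ttr was at 0.502 and 0.420 FPKM and at 0 and 0.0175 FPKM. No test is given for Apoc2, Ttr, Apoa4, Apob, Apoc4 or Gm44805 in epiblast, since they were under 1 FPKM in at least 3 of its 4 libraries and entered the fit through the visceral endoderm. Neither Apoa1 nor Apom passed after adjustment.

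Counted in the epiblast, 5 of the 10 were lower in the knockouts without overlap, 1 (Gm44805) was higher and 4 overlapped, where 9.42% of all genes tested were lower and 14.6% higher without overlap. Of the 5, Apoa4, Apoc2 and Ttr entered the fit through the visceral endoderm. Apoa1 and Apom, the other 2, reached 1 FPKM in the epiblast controls only. Nothing is therefore read from that count beside those shares. Of the 4 genes that reached 1 FPKM in 2 epiblast libraries (Apoa1, Apom, Apoe and Apoc1), 0 were called by limma at an adjusted p under 0.05, as were 0 over all genes (0%). At an unadjusted p under 0.05 there were 2 of the 4, Apoa1 and Apom, and 306 over all genes (2.29%). Apoa1 and Apom reached that minimum in the controls only, so this count supports nothing. Gm44805 was at 0 in both epiblast controls and at 0.257 and 0.673 FPKM in the knockouts. Apoc2, which overlaps it, was at 0 in both knockouts. The sum of both was 0.393 and 1.66 FPKM in the epiblast controls and 0.257 and 0.673 FPKM in the knockouts, which overlapped. In extraembryonic ectoderm, with its single control and no test, 9 of the 10 were lower in both knockouts than in that library. So were 35.5% of the 13914 genes that reached 1 FPKM in 2 or more of the 11 libraries of day 6.5. Apoa4, Apob, Apoc4 and Ttr reached that minimum only with the visceral endoderm, so nothing is read from this count. Apoa1, for example, was at 4.78 FPKM against 0.804 and 0.908 FPKM, and Apom at 4.93 FPKM against 0.401 and 0.158 FPKM.

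Of the 11 visceral endoderm markers, 4 were lower in the knockout epiblast without overlap (Spink1, Afp, Foxa2 and Hnf4a) and 7 overlapped. The fitted difference was below 0 for 6 and above 0 for 5, with a median of -0.01 against 0.06 over all genes, and 0 were called. Over all genes tested, 9.42% were lower and 14.6% higher without overlap. Afp and Hnf4a entered the fit through the visceral endoderm. Spink1 and Foxa2 reached 1 FPKM in the epiblast controls only, so nothing is read from the count of 4. The first 3 of those 4 are given here, chosen after their values were seen. Spink1, a secreted trypsin inhibitor and the most abundant of the visceral endoderm markers there at 2002 to 7110 FPKM, was at 34.3 and 11.4 FPKM in the control epiblast and at 0.178 and 0.597 FPKM in the knockout epiblast. Afp, the fetal counterpart of albumin, was at 0.769 and 1.35 FPKM and at 0.0763 and 0.0190 FPKM. Foxa2 was at 1.38 and 2.58 FPKM and at 0.0752 and 0 FPKM. Amn, at 2.12 and 0.830 FPKM and at 3.31 and 1.33 FPKM, overlapped. The whole marker sum overlapped too, at 191 to 208 FPKM in the controls and 161 to 285 FPKM in the knockouts, because Cldn6, at 154 to 278 FPKM, makes up most of it in the epiblast. In such dissected tissue, fewer cells of a type and less RNA per cell cannot be told apart, and the part of visceral endoderm RNA in the epiblast values was not tested.

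Among genes outside the group, Rbp4, the retinol-binding protein that circulates with transthyretin, followed the mean of the 9 genes other than Gm44805 most closely over the 11 libraries, with a Pearson correlation of 0.997 on the log2 scale. Lgals2 (0.995), Mgst3 (0.995), Misp3 (0.994) and Tgm1 (0.994) came next. Correlations of the members with that mean were 0.933 to 0.997, other than 0.656 for Apoc1 and 0.749 for Gm44805, which is not in the mean. These 11 points are 3 lineages, so a correlation mostly states the difference between lineages. Above 0.99 were 35 genes, among them the members Apoa1, Apoa4, Apom, Apoc2 and Ttr, which are part of that mean. The genes most like Gm44805 were Dusp28 (0.925), Ttc39a (0.923), Tmem176a (0.861), Vamp5 (0.860) and Tnfrsf25 (0.857), all at or under 10.3 FPKM.

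The other genes of the lipoprotein pathway gave no call between genotypes in visceral endoderm, where 1 gene of 13376 was called in all and the median over all genes was 0.05, so the absence of calls is no result about the pathway. Of 12 other apolipoprotein genes 7 were tested, and 0 were called, with 1 fitted difference above and 6 below 0 and a median of -0.30. The highest was Apoa2, a second protein of high-density lipoprotein, at 50.9 and 534 FPKM in the controls and 57.4 and 198 FPKM in the knockouts. Like Apob, Apom, Apoc1, Apoc2, Apoc4 and Ttr, and unlike Apoe, it was higher in replicate 2 of each genotype.

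Of 25 genes for assembly, lipid transfer and lipolysis 20 were tested and 0 called (15 above and 5 below 0, median 0.03). P4hb, the smaller subunit of the lipid transfer protein that loads apolipoprotein B, was the highest of them, at 287 and 271 FPKM in the controls and 384 and 269 FPKM in the knockouts. Its partner Mttp was at 50.4 and 103 FPKM and at 94.6 and 74.4 FPKM. Of the 25, 4 were higher in the knockouts without overlap and 2 lower, where 14.3% of all genes tested were higher and 9.81% lower.

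Of 19 receptors and endocytic partners 18 were tested and 0 called (12 above and 6 below 0, median 0.12), led by the endocytic adaptor Dab2 at 939 and 539 FPKM in the controls and 1194 and 615 FPKM in the knockouts. Of 25 transcription factors that act on apolipoprotein genes 18 were tested and 0 called (7 above and 11 below 0, median -0.04).

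Of 20 other secreted or transport proteins 15 were tested and 0 called, with 3 above and 12 below 0 and a median of -0.38. Rbp4 was at 1958 and 2429 FPKM in the control visceral endoderm and at 1455 and 1314 FPKM in the knockouts, lower without overlap (-0.66 ± 0.37, limma, adjusted p = 1). The highest of that list, Spink1, was at 2002 and 7110 FPKM and at 2002 and 4227 FPKM.

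In oocytes, eggs and early embryos most of the genes were at or near 0. The number listed at 0 in every library of a stage was 5 of the 10 in oocytes, 8 in eggs, 6 in late 1-cell embryos and 3 in each of the 2-cell stages. Ttr was listed at 0 in all 26 libraries, and Apoa1, Apoa4, Apob and Apoc4 did not exceed 0.249 FPKM in any. The locus of Apoc2 and Gm44805 appeared at traces in 2-cell embryos and was listed at 0 before them. In early 2-cell embryos Gm44805 was at 0.271 FPKM in 1 control and Apoc2 at 0.0903 FPKM in another, with 0 in the other libraries. In late 2-cell embryos Gm44805 was at 0.635 and 0.501 FPKM in the controls and at 0.183 to 0.959 FPKM in the knockouts, and Apoc2 at 0 and 2.72 FPKM and at 0 to 0.954 FPKM. Apoe, Apom and Apoc1 were the 3 that reached the minimum of 1 FPKM in 2 libraries and were tested. The choice of the genes did not use the values of these libraries, though earlier results of these data were known.

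Apoe was lower in knockout than in control late 2-cell embryos. It was at 4.69 and 8.05 FPKM in the controls and at 2.23, 1.69 and 2.65 FPKM in the knockouts, without overlap, a difference of -1.18 ± 0.30 (limma, adjusted p = 0.00323). At this stage 42.3% of all genes tested were called, and 20.9% were called lower as Apoe was, so a call there is common. Likewise 27.7% of all genes were lower without overlap. Without control replicate 2, the higher of the controls, the difference was -0.85 and no longer passed (adjusted p = 0.086).

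Before that stage Apoe gave no call, where 5.95% of all genes tested were called in oocytes, 5.89% in eggs and 7.74% in late 1-cell embryos. In fully grown oocytes it was at 3.28 and 2.68 FPKM in the controls and 3.72, 3.25 and 4.55 FPKM in the knockouts (0.28 ± 0.30, adjusted p = 0.785). In MII eggs it was at 2.79 and 2.48 FPKM and at 3.70, 4.03 and 3.06 FPKM, all 3 knockouts above both controls, as for 19.8% of all genes (0.33 ± 0.30, adjusted p = 0.776). In late 1-cell embryos it was at 1.16 and 1.76 FPKM and at 1.71, 3.02 and 0.622 FPKM, overlapping (0.09 ± 0.30, adjusted p = 0.969).

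In early 2-cell embryos Apoe was at 1.36, 1.37 and 1.30 FPKM in the controls and 1.16, 1.15 and 0.138 FPKM in the knockouts. These were all lower, as for 15.1% of all genes, but the difference of -0.43 ± 0.27 did not pass (adjusted p = 0.255). Control means of Apoe thus went from 2.98 FPKM in oocytes to 1.34 FPKM in early 2-cell and 6.37 FPKM in late 2-cell embryos, and knockout means from 3.84 FPKM to 0.815 FPKM and 2.19 FPKM.

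Apom was at 0 in every oocyte, egg and late 1-cell library and appeared in early 2-cell embryos. There the controls were at 1.42, 1.04 and 0.168 FPKM and all 3 knockouts at 0, and the difference was called (-0.84 ± 0.20, limma, adjusted p = 0.00305). That fit takes its spread from all stages, among them 15 earlier libraries in which Apom was at 0. Of all genes tested 29% were called at this stage, and 14.9% were called lower. With the stage fitted alone it was not called (adjusted p = 0.116), and the difference was -2.95 with a pseudocount of 0.1 and -1.60 with TPM scaling.

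In late 2-cell embryos Apom was at 4.25 and 5.60 FPKM in the controls and at 3.09, 4.66 and 2.21 FPKM in the knockouts, which overlapped (-0.49 ± 0.22, adjusted p = 0.085). Knockout late 2-cell embryos thus had Apom transcripts, and the early 2-cell knockouts had none listed. Apoc1 was at or under 1.40 FPKM in every early library and reached 1 FPKM in 2 late 2-cell libraries. There the groups overlapped and the difference of -0.25 ± 0.22 did not pass (adjusted p = 0.395). In early 2-cell embryos it was at 0.0851, 0 and 0.852 FPKM in the controls and at 0 in all 3 knockouts, too low for a test.

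**Figure D4:**
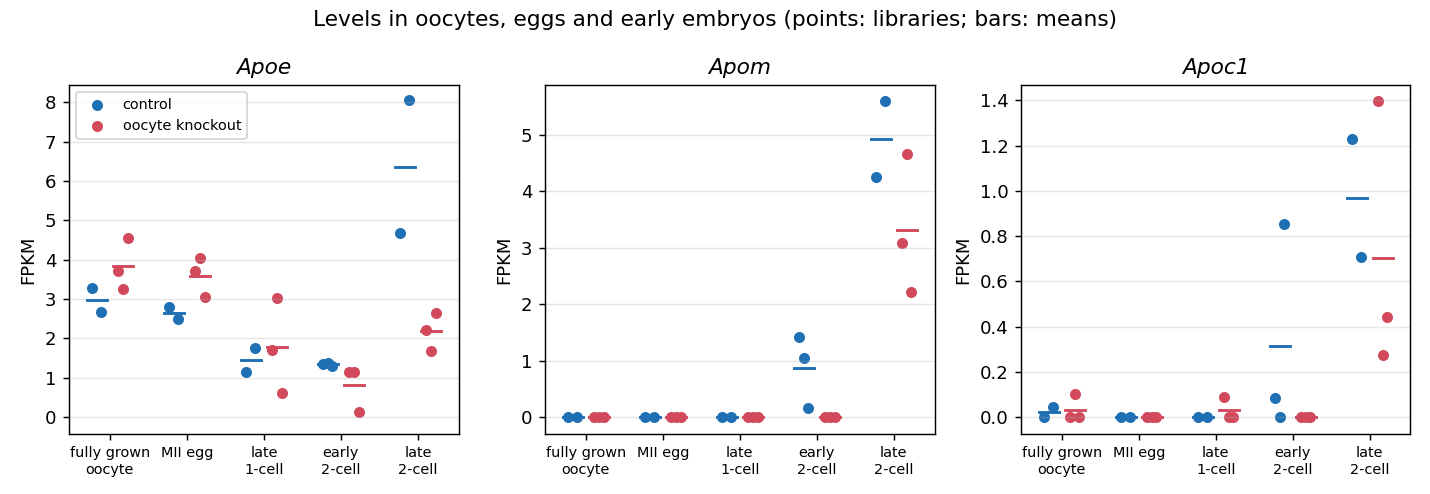
FPKM of Apoe, Apom and Apoc1 by stage in each total RNA library (points), with group means (bars), controls in blue and libraries from knockout oocytes in red. Apoe in late 2-cell embryos is at 4.69 and 8.05 FPKM in the controls and below 3 FPKM in the 3 knockouts, and Apom is at 0 in the 3 early 2-cell knockouts.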

How the data were processed

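The authors deposited FPKM, 1 column per library, in 1 table for total RNA and 1 for poly(A) RNA, although the column headers end in rpkm. Per the labels' protocols, a stranded SMART-Seq kit was used for the early libraries, and SMART-Seq mRNA with the Nextera XT kit for those of day 6.5. The submitters' processing notes name Trim Galore 0.6.6, STAR 2.7.9, StringTie 2.1.7 and mm10, without their settings. In the deposited column of control epiblast replicate 1, in FPKM like the others, 1 value was below 0 (Gm24888) and was set to 0. Low values times exonic length fell within 0.05 of whole steps in 12.0% to 23.4% of cases, at the best of many trial step sizes in each library. An even spread gives 10% for a fixed step and more for the best of many, so reads were not recovered.

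The fits, on log2(FPKM + 1), used lmFit and trended eBayes of limma 3.58.1 (R 4.3.3) on genes that reached 1 FPKM in 2 or more libraries, with Benjamini-Hochberg adjustment over all genes tested and a threshold of 0.05. This scale understates the change of low genes. One fit held the 4 epiblast and 4 visceral endoderm libraries, and another the 26 total RNA libraries. Extraembryonic ectoderm, with 1 control, was not tested. The fit was also run on simulated data, drawn around the mean of each gene over all libraries of a fit. Those data had no differences between lineages or stages, so nothing is read from them for these genes. Groups came from the sample titles. Of the gene identifiers, 54349 are in GENCODE M21 with the same version. Sequences are from GENCODE M21 transcripts and RefSeq (GRCm38.p6).

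The genes and the lists were chosen with earlier results of these data known. All 10 genes were named, with the genes of each list highest in visceral endoderm and the 5 closest by correlation, leaving out predicted models and genes under 5 FPKM in their highest library. Apoa2, Mttp, Rbp4 and the single marker genes are given beside them, some after their values were seen. Alternatives were a pseudocount of 0.1, no filter or a minimum mean of 5 FPKM, scaling to TPM, median centring, quantile normalization, no trend, a replicate block, other sets of libraries and leaving out each library. Sequence and position of Ttr, and the values of 1 gene that the rule would name, are not reported here.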

Additional observations from a re-analysis of the deposited data

Results flagged for a closer look

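Some results went opposite ways in different lineages or stages. Gm44805 was lower in both knockouts in visceral endoderm and higher in both knockouts in epiblast, where it is at 0 in the controls and at 0.257 and 0.673 FPKM in the knockouts. Most of its exonic bases are also those of Apoc2. In epiblast Apoc2 went the other way, at 0.393 and 1.66 FPKM in the controls and 0 in both knockouts. The sum of both genes overlapped between the epiblast groups, and the part of read sharing between them was not tested. For Gm44805 alone, the genotype effect in visceral endoderm minus that in epiblast was -8.42 on the log2 scale. As the gene was chosen from the visceral endoderm contrast, nothing is read from the fitted call of this difference.

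Apoe was higher in all 3 knockout libraries than in both controls in MII eggs, and lower in all 3 in early and in late 2-cell embryos. The effect in late 2-cell embryos minus that in MII eggs was -1.51 ± 0.43 (limma interaction contrast added after seeing the data, adjusted p = 0.0113, with 26.6% of all genes called). The contrast was computed because these directions had been seen, so its p is no independent evidence of them. In the same contrast Apom was at -0.49 (adjusted p = 0.283) and Apoc1 at -0.25 (0.608), and neither passed. Over 17 alternatives it ran from -1.90 to -1.18, with adjusted p of 0.00663 to 0.0957, and passed in 14. It did not pass with a pseudocount of 0.1 (0.0957), with TPM scaling (0.0674) or without control replicate 2 of late 2-cell embryos (0.0818). The effect in early 2-cell embryos minus that in MII eggs was -0.76 ± 0.40 and did not pass (adjusted p = 0.350, and 0.225 to 0.596 over 18 alternatives, with 3.6% of all genes called).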

How the results depend on the processing

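The number of libraries limits these results, and the depth behind them is unknown. For visceral endoderm the count of called genes, 1 as reported, was 0 without a filter on low values and 2 with the lineage fitted alone. For epiblast, 0 as reported, it was 3 with a pseudocount of 0.1, 4 with a replicate block and 3 with the lineage alone. For the difference of genotype effects between both lineages, 1 as reported (Gm44805, chosen for its visceral endoderm contrast), it was 0 without a filter, 0 with quantile normalization and 3 with a replicate block. The counts for oocytes (903 as reported), MII eggs (895), late 1-cell (1176), early 2-cell (4407) and late 2-cell (6419) embryos were 310, 304, 543, 2862 and 3865 with a mean of at least 5 FPKM. With a replicate block the first 3 were 480, 417 and 680, and fitted alone MII eggs gave 1364 and early 2-cell embryos 1193. In the fit with a replicate block the difference of Gm44805 in visceral endoderm was -7.88, as without it. Each number occurs once in each genotype there, so a block cannot move that estimate and this is no check of it. Same-numbered libraries deviated together at day 6.5 (correlation 0.593 in epiblast and 0.429 in visceral endoderm, over 2 pairs each), but not in early 2-cell embryos (0.043, 0.041 and -0.077), and no label says that the numbers pair samples. Leaving out each library gave 0 to 3 calls in visceral endoderm (0 without knockout replicate 1, 2 without control replicate 2 and 3 without knockout replicate 2), 0 to 0 in epiblast, and 0 to 3 for the difference between both. It gave 467 to 789, 425 to 684, 534 to 1004, 3721 to 4388 and 4909 to 6158 in the early stages, in their order, with the lowest values when a control was left out, other than in early 2-cell embryos, where knockout replicate 2 gave it.

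Gm44805 in visceral endoderm kept its direction throughout, from -8.84 to -6.93 with a library left out. The gene was chosen from the values of these same libraries, so this is no check of it. Apoa1 in visceral endoderm turned to 0.16 with quantile normalization. With a library left out, Apoa4 ran from -0.63 to 0.17, Apoe from -1.54 to 0.80 and Apoc2 from -1.47 to 0.39 in visceral endoderm, Apoe from -0.37 to 0.68 and Apoc1 from -0.53 to 1.12 in epiblast, and Apoe from -0.22 to 0.44 in late 1-cell embryos, so none of these has a settled sign. Apob ran from 0.76 to 2.08, Apoc4 from -1.83 to -0.79, Ttr from -1.14 to -0.21, Apom from -0.70 to -0.10 and Apoa1 from -0.27 to -0.01 in visceral endoderm, with the sign kept. Apom in late 2-cell embryos passed without knockout replicate 2 (-0.70, adjusted p = 0.0146). Median centring moved the median of all genes from 0.06 to -0.09 in epiblast and from 0 to 0.11 in MII eggs. TPM scaling moved the excess of Apoa4 in visceral endoderm over epiblast to 9.38 (log2). The cause of these changes was not tested, other than the smaller number of genes under the stricter filter.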
